A study of Homo sapiens with 4 samples.

Results

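SNAIL1 occupancy was examined at 9 genes of the Wnt/β-catenin pathway, LEF1, TCF7L2, AXIN2, LGR5, RNF43, ZNRF3, NKD1, MYC and SOX9. A peak was assigned to a gene when its summit, the base with the strongest signal, lay within 10 kb of the gene body in the human build hg19. Of the 2177 peaks in the 4 deposited lists, 4 met this rule. They are 2 sites, one inside TCF7L2 and one inside RNF43, each listed in both libraries of induced cells. The other 7 genes had no peak within 10 kb in any library.

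In the Wnt pathway, ligand binding stops the destruction of β-catenin, which then enters the nucleus and joins the DNA-binding factors of the TCF/LEF family to activate target genes. Several targets act back on the pathway. AXIN2 and NKD1 dampen the signal inside the cell, and the transmembrane E3 ubiquitin ligases RNF43 and ZNRF3 remove Frizzled receptors from the cell surface. In the intestine this pathway maintains the stem cells at the crypt base and is abnormally active in most colorectal cancers. SNAIL1 is a zinc-finger repressor that binds E-boxes of the form CAGGTG and drives epithelial-mesenchymal transition.

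The cells were pN1-LS174T Snail1-HA cells, a derivative of the established human colorectal adenocarcinoma line LS174T, which carries a stabilising mutation of β-catenin. In these cells doxycycline switches on murine SNAIL1 with a hemagglutinin (HA) tag. The induced group (2 libraries, induced 1 and induced 2) had received 0.1 mg/ml doxycycline for 6 h, and the uninduced group (2 libraries, uninduced 1 and uninduced 2) consisted of the same engineered cells left without the drug. All 4 chromatin immunoprecipitations used an antibody against HA, so endogenous human SNAIL1 was not measured. The series text names the libraries of a group biological replicates, but neither separate cultures nor a single clone is stated. The spread between libraries may thus be technical. The p-values of tests between the groups apply to these 4 libraries only. Those of tests on read counts cover counting error and not the spread between libraries.

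Induced 1 contributed 823 peaks, induced 2 1338, uninduced 1 only 5 and uninduced 2 only 11. Library totals were unknown, and depth was read from the number of extended reads over each summit, recovered from the listed values and here called reads. The median was 51 reads in induced 1 and 35 in induced 2, with lowest values of 28 and 17. The lowest values in the uninduced lists were 37 and 35 reads. A gene without a listed peak is not shown to be unbound, since weaker occupancy may not have been listed.

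Induced cells carried peaks inside 2 of the 9 genes and uninduced cells inside none. Induced 1 and induced 2 each had 2 peaks within 10 kb of the genes, a mean of 2.0 ± 0.0 (SD, n = 2), and uninduced 1 and uninduced 2 had 0, a mean of 0.0 ± 0.0 (SD, n = 2). The induced and uninduced libraries did not overlap, but neither did the whole lists, with 823 and 1338 peaks against 5 and 11. With so few uninduced peaks anywhere, their absence near the 9 genes is not particular to these genes. A two-sided exact permutation test gave p = 0.333, the smallest value that 2 libraries a group allow. The 2 peaks made up 0.243% of the list of induced 1 and 0.149% of that of induced 2.

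**Figure D1:**
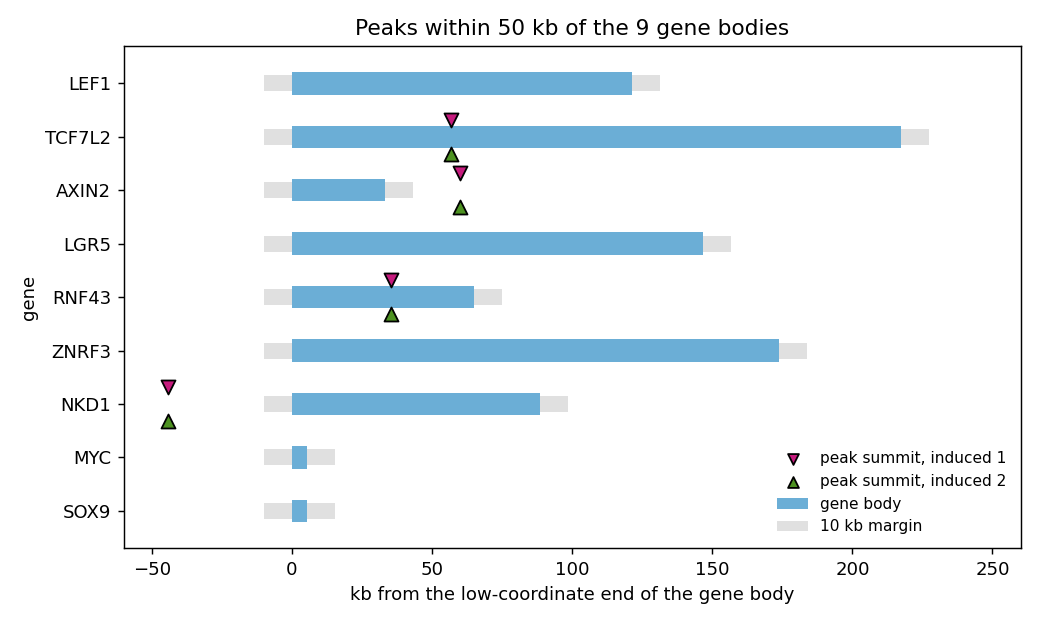
Positions of peak summits within 50 kb of the 9 gene bodies. The x axis gives kb from the low-coordinate end of each body (blue, with the 10 kb margin in grey), and triangles mark summits of induced 1 (pointing down) and induced 2 (pointing up). The sites of TCF7L2 and RNF43 lie inside the bodies at the same place in both libraries, and those near AXIN2 and NKD1 lie outside the margin.

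TCF7L2 encodes the TCF/LEF factor that, with β-catenin, drives much of the Wnt target programme in the intestinal epithelium. Its gene body spans chr10:114710009-114927437, 217 kb. In induced 1 the peak covered chr10:114766582-114766893 with its summit at 114766705, and in induced 2 it covered chr10:114766530-114766889 with its summit at 114766675. The summits lay 30 bp apart and 56.7 kb from the low-coordinate end of the body, 26.1% of the way along it. TCF7L2 is transcribed towards higher coordinates, so this is 56.7 kb downstream of the 5′ end of the body. Whether the site is exonic or intronic was not analysed here, since no hg19 gene model was used. RefSeq lists 3 genes that overlap TCF7L2, the non-coding LOC124902502, the pseudogene RPS15AP30 and the small nucleolar RNA gene SNORA87, and whether any of them reaches the site was not analysed here.

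At the TCF7L2 site, 51 reads (95% exact Poisson interval 38.0 to 67.1) covered the summit in induced 1 and 54 (40.6 to 70.5) in induced 2, and no peak was listed in uninduced 1 or uninduced 2. These intervals, like those below, cover counting error only. The intervals of the induced libraries overlapped, but these reads are not adjusted for depth. Over the shared peaks induced 1 had 1.23 times the reads of induced 2. The fold enrichment over the local background of the control was 5.97 in induced 1 and 6.68 in induced 2, with −log10 q of 13.95 and 24.0. Folds, p and q of single peaks are the authors' values. By fold the site ranked 301 of 823 in induced 1 (percentile 63.5) and 279 of 1338 in induced 2 (percentile 79.1), above the list medians of 5.33 and 4.91. By reads it ranked 407 (percentile 49.4) in induced 1, at the list median of 51, and 216 (percentile 83.3) in induced 2. Its place among peaks thus differed more between the libraries by reads than by fold.

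RNF43 encodes one of the pair of ubiquitin ligases that clear Frizzled from the membrane, and it is mutated in a subset of colorectal cancers. Its gene body spans chr17:56429861-56494956, 65.1 kb. The peak covered chr17:56465144-56465515 in induced 1, with its summit at 56465323, and chr17:56465119-56465510 in induced 2, with its summit at 56465313. The summits lay 10 bp apart, near the middle of the body. RNF43 is transcribed towards lower coordinates, so the site lay 29.6 kb downstream of the 5′ end of the body. Exon or intron was not assigned here either. RefSeq lists a non-coding antisense gene, TSPOAP1-AS1, that overlaps RNF43, and whether it reaches the site was not analysed here.

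The RNF43 site was the stronger of the pair. Its summit was covered by 89 reads (71.5 to 110) in induced 1 and 65 (50.2 to 82.8) in induced 2, with no peak in uninduced 1 or uninduced 2. Induced 1 had more reads before any adjustment for depth, and the intervals of the libraries overlapped. Its fold reached 7.18 in induced 1 and 11.3 in induced 2, with −log10 q of 29.5 and 44.3. The site ranked 172 of 823 by fold in induced 1 (percentile 79.1) and 50 of 1338 in induced 2 (percentile 96.3). By reads it ranked 80 and 123, percentiles 90.1 and 90.6, so its place among peaks was closer between the libraries by reads than by fold. Among the peaks of chromosome 17 it ranked 4 of 101 by fold in induced 2 and 13 of 66 in induced 1.

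**Figure D2:**
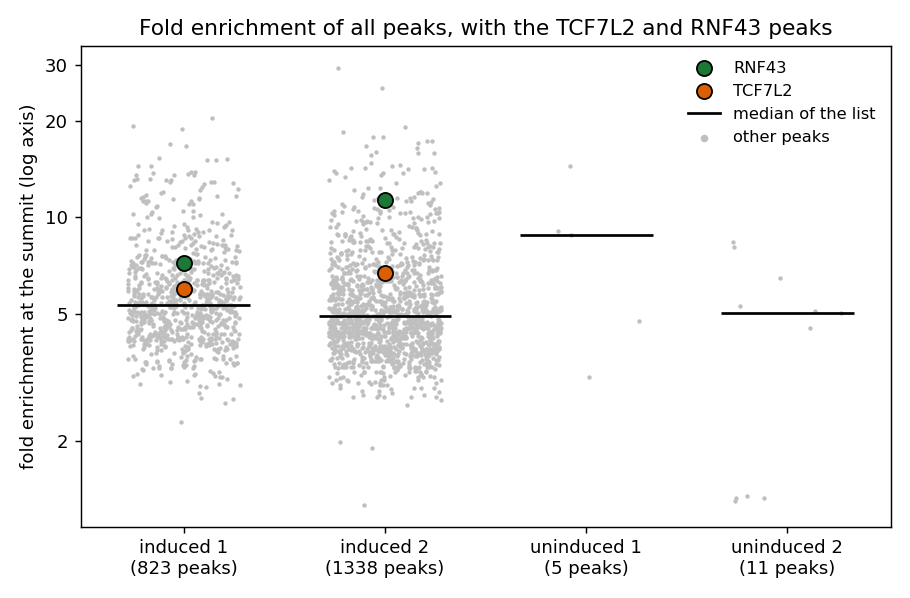
Fold enrichment at the summit (log axis) of every listed peak in each of the 4 libraries, with the list median as a black line. The TCF7L2 peak lies at 5.97 and 6.68 and the RNF43 peak at 7.18 and 11.3, all above the medians of the induced lists, and neither appears in the uninduced lists.

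Fold and reads ordered the induced libraries differently at RNF43. Reads of induced 1 are given before the scaling by 1.40 that preceded its peak calling. The RNF43 fold thus rests on 63.6 scaled reads in induced 1 and 65 in induced 2, and the TCF7L2 fold on 36.4 and 54. Each library was called on its own scale, and control reads of induced 2 counted 0.904 each. On these scales the local background at RNF43 was 8.0 in induced 1 and 4.84 in induced 2, while at TCF7L2 it was 5.28 and 7.23. Scaled reads and backgrounds are thus not in a common unit between the libraries. The RNF43 fold was 1.58 times higher in induced 2, against a median of 1.04 over the 661 shared peaks, and 73 shared peaks (11.0%) had a larger ratio. The RNF43 reads were 1.37 times higher in induced 1 (95% exact binomial interval of the ratio 0.983 to 1.92). The part of the control background in the difference of fold was not tested.

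Both sites were found in both induced libraries. For comparison, 80.3% of all induced 1 peaks were found in induced 2 and 49.3% of induced 2 peaks in induced 1, with an overlap of at least 1 bp, and the 2 of 2 is read against these shares. The gaps of 30 and 10 bp between summits stand beside a median of 23 bp over all shared peaks. Averaged over the libraries, the percentile of fold was 87.7 at RNF43, rank 109 of the 661 shared peaks, and 71.3 at TCF7L2, rank 251.

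After adjustment, no difference between the induced libraries beyond counting error was detected at either site. Only peaks listed in both libraries could be tested, which leaves out sites that differed enough to be listed in 1. Summed over shared peaks, induced 1 had 1.23 times the reads of induced 2. TCF7L2, at 0.944 times (0.631 to 1.41), differed from this overall ratio by -0.38 on the log2 scale (exact binomial test, two-sided p = 0.202, adjusted p = 1.0). RNF43 differed from it by 0.16 on the log2 scale (exact binomial p = 0.518, adjusted p = 1.0). With Benjamini-Hochberg adjustment over the 661 shared peaks, 0.0% passed an adjusted p of 0.05, and 19 had an unadjusted p under 0.05. Against a depth ratio of 1.45, taken from the genome-wide backgrounds of both libraries, 5 peaks passed, neither site among them. TCF7L2 then differed by -0.62 (unadjusted exact binomial p = 0.0291, adjusted p = 0.321), and the RNF43 difference changed sign to -0.08.

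**Figure D3:**
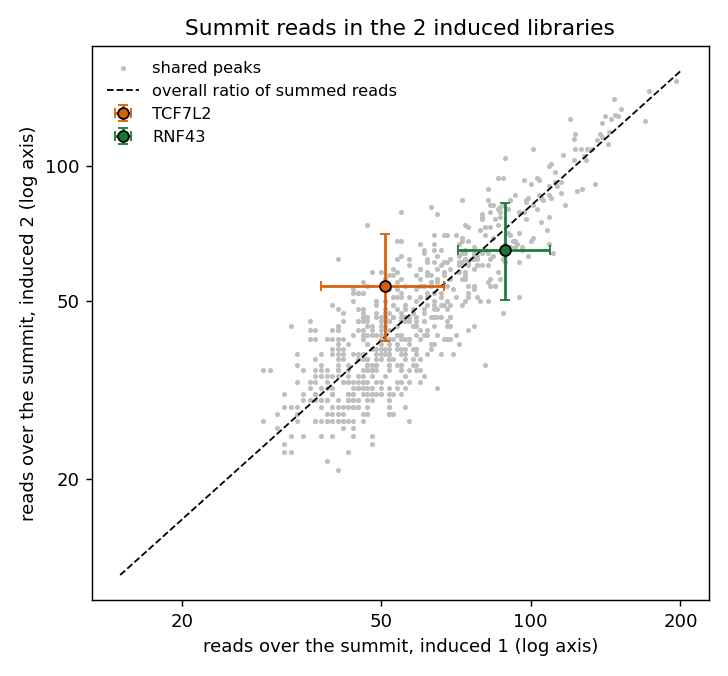
Reads over the summit in induced 1 (x) and induced 2 (y), both on log axes, for the 661 shared peaks. Bars at TCF7L2 and RNF43 are 95% exact Poisson intervals, and the dashed line is the overall ratio of 1.23. The TCF7L2 point lies above the line and the RNF43 point just below it, both with intervals that reach it.

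Neither site had another listed peak within 50 kb. The next peak to the TCF7L2 site was 10362 kb away in induced 1 and 2377 kb away in induced 2. The next peak to the RNF43 site was 527 kb away in induced 1, with a fold of 7.17, and 476 kb away in induced 2, with a fold of 5.11. Long distances were not particular to these sites. In induced 1 the next peak lay 6221 kb from the peak nearest to LGR5, and 14.3 kb from that nearest to SOX9. The windows of the 9 genes cover 1.04 Mb in all, and the 2 peaks correspond to 1.93 peaks per Mb in each induced library (95% exact Poisson interval 0.234 to 6.97). The lists held 0.273 and 0.443 peaks per Mb over the chromosomes as far as their furthest peak. Both values lie inside that interval, 0.273 close to its lower end. With 2 peaks the interval is too wide to show that the densities are alike. The comparison covers the 10 kb windows only. Mean density was 2.34 peaks per Mb over gene bodies alone and 2.28 within 50 kb, and no interval was computed for these. Windows around genes were set against whole chromosomes, which include the stretches between genes.

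The promoters of TCF7L2 and RNF43 are shown because the peaks in these genes lie far from the 5′ ends of the bodies: the first start of each gene, and each other start that holds an E-box. RefSeq promoter windows (GRCh38.p14) were matched by symbol for 3 of the 9 genes, LEF1 with 1 start, TCF7L2 with 3 and RNF43 with 2. Each sequence is the 250 bases before a start, on the strand of the gene, 5′ to 3′. Capitals mark E-boxes of the form CANNTG other than CAGGTG and its reverse complement CACCTG.

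TCF7L2, start 1 (chr10:112949997-112950246, plus strand): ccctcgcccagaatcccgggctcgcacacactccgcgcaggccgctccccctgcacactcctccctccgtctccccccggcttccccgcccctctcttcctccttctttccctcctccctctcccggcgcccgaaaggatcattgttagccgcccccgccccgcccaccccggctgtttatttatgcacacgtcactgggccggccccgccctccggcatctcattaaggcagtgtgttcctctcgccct

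TCF7L2, start 3 (chr10:113129021-113129270, plus strand): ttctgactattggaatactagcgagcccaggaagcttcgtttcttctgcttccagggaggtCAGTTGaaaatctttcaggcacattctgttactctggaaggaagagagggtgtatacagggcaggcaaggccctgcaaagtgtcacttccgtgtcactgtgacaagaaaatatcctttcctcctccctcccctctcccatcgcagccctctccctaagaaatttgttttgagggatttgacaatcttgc

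RNF43, start 1 (chr17:58417535-58417784, minus strand): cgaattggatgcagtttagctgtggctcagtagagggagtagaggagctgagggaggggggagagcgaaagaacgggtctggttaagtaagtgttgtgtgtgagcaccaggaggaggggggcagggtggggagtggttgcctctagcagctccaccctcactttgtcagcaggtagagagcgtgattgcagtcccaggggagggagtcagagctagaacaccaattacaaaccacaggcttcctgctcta

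RNF43, start 2 (chr17:58402722-58402971, minus strand): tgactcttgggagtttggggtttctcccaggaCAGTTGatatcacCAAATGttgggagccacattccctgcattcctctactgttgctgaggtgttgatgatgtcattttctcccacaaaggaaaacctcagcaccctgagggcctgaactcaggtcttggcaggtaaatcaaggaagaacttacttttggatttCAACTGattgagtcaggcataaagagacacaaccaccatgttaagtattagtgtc

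None of the 6 windows held CAGGTG or CACCTG, the letters of the SNAIL E-box on either strand, against 17.5% of the 35116 windows of the same length in the table. Another CANNTG was present in 3 of the 6, against 54.0% of all windows. The second RNF43 start had 3, beginning 218, 205 and 55 bases before the start, LEF1 had 1 at 201 bases and start 3 of TCF7L2 had 1 at 189 bases. The TCF/LEF core CTTTGAA or CTTTGAT, on either strand (TTCAAAG or ATCAAAG), was in 0 of the 6 and in 5.94% of all windows. These matches describe the letters in the windows only. Within GRCh38 the second RNF43 start lies 14.8 kb downstream of the first, and the other TCF7L2 starts lie 176 and 179 kb downstream of the first. The hg19 distances of the peaks, 29.6 and 56.7 kb, are given beside these without conversion between builds. The sequence under the peaks was not analysed here.

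Among the other feedback regulators, 2 had a site in both induced libraries outside the 10 kb margin but within 50 kb. AXIN2, the scaffold protein that rebuilds the β-catenin destruction complex and is a general reporter of Wnt activity, had its nearest peak 26.8 kb beyond the high-coordinate end of its body, the side of its 5′ end. The peak covered chr17:63584343-63584628 in induced 1 and chr17:63584344-63584669 in induced 2. It had 50 reads (37.1 to 65.9) and a fold of 4.74 in induced 1, and 42 reads (30.3 to 56.8) and a fold of 5.22 in induced 2. By fold it lay below the list median in induced 1 (percentile 33.8) and above it in induced 2 (percentile 58.0).

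NKD1, which binds Dishevelled and restrains the pathway, had its nearest peak 44.3 kb below the low-coordinate end of its body in induced 1 and 44.2 kb below it in induced 2, upstream of its 5′ end. The peak covered chr16:50537835-50538200 in induced 1, with 74 reads (58.1 to 92.9) and a fold of 7.69, and chr16:50537858-50538203 in induced 2, with 50 reads (37.1 to 65.9) and a fold of 7.94. Its percentiles by fold were 84.1 and 87.4, above those of the TCF7L2 site in each library. Neither site was listed in uninduced 1 or uninduced 2. The AXIN2 summits lay 22 bp apart and the NKD1 summits 23 bp apart. Whether either site lies in another gene was not analysed here. In RefSeq the next coding gene on that side is CEP112 for AXIN2 and BRD7 for NKD1.

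ZNRF3, the relative of RNF43 with the same role at the membrane, had no peak within 1 Mb in either induced library. Its nearest summits were 2083 kb away in induced 1 and 1315 kb away in induced 2, and these were different sites. The induced 1 site was also listed in induced 2 (41 reads, fold 4.18), where another peak lay nearer. Of the ligase pair, RNF43 alone thus had a listed peak within 10 kb, and this difference between the genes was not tested. LGR5, the R-spondin receptor that marks crypt base stem cells, lay 1701 kb from its nearest peak in both induced libraries.

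The remaining transcription factor genes had no nearby peak either. LEF1, a relative of TCF7L2 that is itself a Wnt target, had its nearest peak 278 kb away in induced 2 (36 reads, fold 5.76) and 11044 kb away in induced 1. MYC, the growth-promoting target whose repression follows loss of Wnt signalling in colon cancer cells, had its nearest peak 284 kb away in induced 2 (37 reads, fold 5.91) and 1178 kb away in induced 1 (44 reads, fold 5.64). For SOX9, a factor of crypt and Paneth cells, the nearest site was the same in both induced libraries, 287 kb from the body. It had 73 reads and a fold of 5.91 in induced 1, and 68 reads and a fold of 8.16 in induced 2. The nearest peaks of LEF1 and MYC thus differed between the induced libraries, while those of AXIN2, LGR5, NKD1 and SOX9 were shared. The induced 1 peak nearest to MYC was also listed in induced 2 (31 reads, fold 3.50), where another peak lay nearer.

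**Figure D4:**
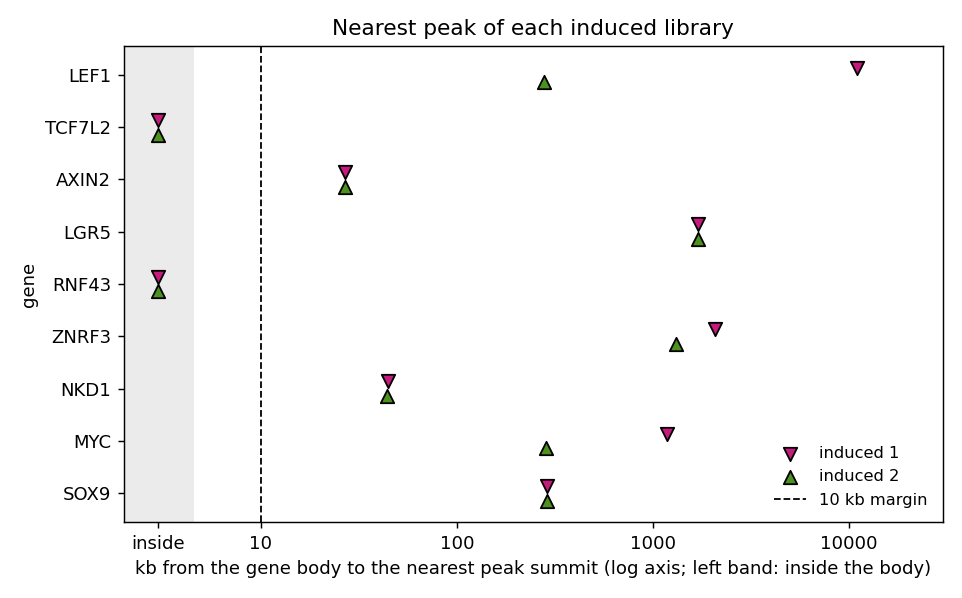
Distance from each gene body to the nearest peak summit of each induced library, in kb on a log axis, with summits inside the body drawn in the left band and the 10 kb margin dashed. TCF7L2 and RNF43 have summits inside the body, AXIN2 and NKD1 at 26.8 and 44.3 kb, and the nearest summits of the other 5 genes lie at 278 kb or more.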

How the data were processed

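The data were 1 narrowPeak list per library, so the authors called peaks per sample and not on pooled replicates. Peaks were called with MACS2 2.1.1.20160309 on hg19, per the submitters' processing notes, which also list BWA 0.7.15 and Trimmomatic 0.36. Not given in the sources used here: duplicate handling, peak threshold and the control of each library. The authors deposited for each peak a fold enrichment over local background, −log10 p, −log10 q, a score (10 times the −log10 q, rounded down) and the offset of the summit.

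Summit reads were recovered by solving the deposited fold, (pileup + 1)/(background + 1), and the Poisson −log10 p for a whole pileup, which succeeded for 823 of 823, 1338 of 1338, 5 of 5 and 11 of 11 peaks (tolerance 0.0005 in −log10 p). Induced 1 pileups had been scaled down by 1.40 for calling and are given before scaling. Recovery and the binomial test were tested on simulated data. Python 3.11.15 and scipy 1.17.1 were used.

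The 9 genes, with all their peaks and, where there was none, the nearest peak, were named by rule. Genes, lists and tests were chosen with earlier results of these data known. The wider Wnt list and motifs under peaks were not run, since no hg19 annotation or sequence was used.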

Additional observations from a re-analysis of the deposited data

How the results depend on the processing

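The induced minus uninduced difference of 2.0 peaks, the 2 genes with a peak and the 2 sites found in both induced libraries were the same with gene bodies alone, at a fold of at least 5 and with −log10 q filtered at 5 or more. They rose to 4.0 each within 50 kb, which adds the AXIN2 and NKD1 sites. The difference was also 2.0 when any base of a peak could lie in the window. It was 2.0 with any 1 library left out, which counts of 2, 2, 0 and 0 fix in advance. The filters on fold and q could not remove any of the 4 peaks, whose lowest fold was 5.97 and lowest −log10 q 13.95. With the replicate number as a block the difference was 2.0 (exact sign-flip p = 0.5, the smallest 2 pairs allow). No label ties the numbers to a common day or culture, and without values at unlisted sites the pairing could not be checked. The number of shared peaks that differed in reads went from 0 to 5 when the depth ratio of 1.45 replaced the overall ratio of 1.23. TCF7L2 then lay at -0.62 (unadjusted exact binomial p = 0.0291, adjusted p = 0.321) and RNF43, at 0.16 before, at -0.080 (log2). Density over the windows was 1.93 to 2.34 peaks per Mb under the settings run. Its interval was computed for the 10 kb windows only, so the comparison with the whole lists was not repeated under the other settings.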
